A study of Mus musculus with 6 samples.

Results

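The natriuretic peptide genes Nppa and Nppb and the peptide-processing gene Corin were followed through 6 libraries of mouse heart muscle cells, together with the features that lie opposite to their exons. The rows of the 3 genes were taken from the count tables, and every counted mm10 feature with an exon that overlaps theirs on the other strand was added. This gave 5 of the 46078 counted features: Nppa with its opposite feature Gm13054, Corin with its opposite feature Gm20647, and Nppb, which has none.

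Heart muscle cells were isolated by perfusion of the heart outside the body, and their poly-A RNA was sequenced. One group carried a knockdown of Acly made with MyH6-Cas9 mice (Acly-KD, n = 3), in which the Myh6 promoter restricts Cas9 to heart muscle cells, and the other was labelled wildtype (control, n = 3). Acly encodes ATP citrate lyase, which makes cytosolic acetyl-CoA from citrate. The guide, its delivery, the age and sex of the mice, whether the controls carried Cas9, and whether each library came from a separate animal are not given in the sources used here, so the tests speak of the spread among these 6 libraries, part or all of which could be technical.

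Nppa encodes the precursor of atrial natriuretic peptide (ANP), and Nppb that of B-type natriuretic peptide (BNP). Heart muscle cells release both peptides when stretched. Corin, a serine protease on the surface of these cells, cuts pro-ANP to the active hormone, which binds the receptor Npr1 and raises cyclic GMP, lowering blood pressure and promoting salt loss. In the healthy adult heart Nppa mRNA is much higher in atria than in ventricles, and its return in ventricular cells is a common marker of load.

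The libraries held 271463 to 814765 reads in features, 2.81% to 3.07% of their uniquely aligned reads. Exons opposite to another gene were found in 18.0% of annotated nuclear features, and these took 91.9% of the nuclear counts, a pattern of reads counted on the strand opposite to the transcript. Each gene was therefore read through its own row as deposited and through the feature opposite to it, called here the reading of mRNA, with 140295 to 445228 reads per library. Levels are CPM, reads scaled by TMM to the library size over the features tested. The Acly row held 0 reads in each Acly-KD library and 1, 5 and 6 in control replicates 1 to 3, on the wrong strand and too few for more than a limited check. Xist, an RNA of female cells, was given 149 reads in control replicate 2, 137 in control replicate 3 and 0 in the other 4 libraries, so libraries with Xist reads are found among the controls alone.

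Nppa lies on the forward strand at chr4:148000722-148002079 (mm10, 865 exonic bases), and Nppb on the same strand at chr4:147985788-147987205 (781 exonic bases). Gm13054, annotated as antisense RNA at chr4:148001091-148004014 on the reverse strand, has 820 exonic bases, of which 532 are shared with Nppa: 294 with exon 2 and 238 with exon 3. The stretch shared with exon 2, at chr4:148001091-148001384, is all protein-coding in Nppa.

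ANP and BNP each carry a ring closed by a pair of cysteines, the part that receptors recognise. The ring codons of Nppb, codons 99 to 115 of 121 at chr4:147986464-147986514, are shown because no counted feature lies opposite to them, so that this part of the BNP message had no row on the strand that appears to have been counted. They are printed from GENCODE M21 on the strand of Nppb, 5′ to 3′, with the cysteine codons at both ends in capitals.
Nppb ring: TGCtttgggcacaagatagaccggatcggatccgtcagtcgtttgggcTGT

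Corin lies on the reverse strand at chr5:72300025-72504473 (5400 exonic bases over all transcripts), and Gm20647, also annotated as antisense RNA, on the forward strand at chr5:72316354-72368048 (857 exonic bases). They share 147 bases, all coding in Corin, in exon 18 (38 bases, chr5:72316354-72316391) and exon 16 (109 bases, chr5:72329633-72329741) of its transcript Corin-202. On the strand that appears to have been counted, these are the exonic bases of Corin that lie within a counted feature, and they are printed on the strand of Corin.
Corin exon 16 shared with Gm20647: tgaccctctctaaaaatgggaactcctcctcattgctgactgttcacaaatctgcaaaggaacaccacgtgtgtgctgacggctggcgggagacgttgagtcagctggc
Corin exon 18 shared with Gm20647: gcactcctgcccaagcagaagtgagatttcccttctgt
Gm20647 lies within the span of Corin, so reads of Corin mRNA and of unspliced Corin RNA cannot be told apart in its counts. For Gm13054, reads of Nppa mRNA and of other forward-strand RNA over its unshared bases cannot be told apart.

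**Figure D1:**
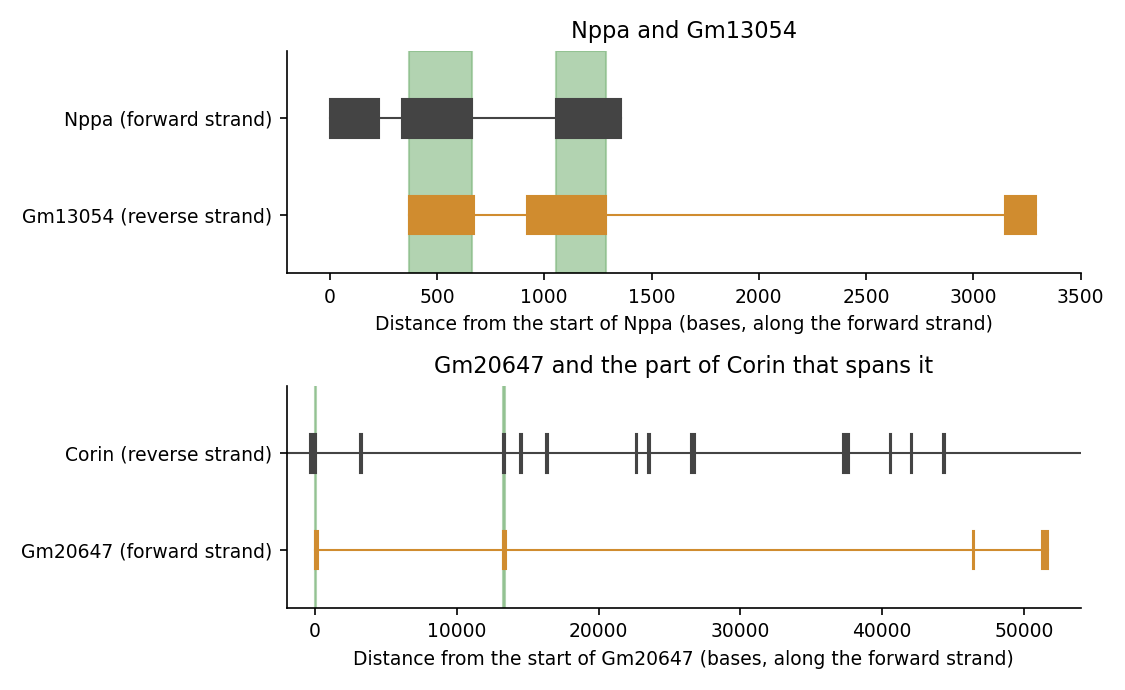
Exons of Nppa and Gm13054 (top) and of Gm20647 with the part of Corin that spans it (bottom) as boxes along the forward strand, in bases from the start of Nppa or of Gm20647, with shared exonic bases shaded. The shaded stretches cover 532 bases of Nppa and only 147 bases of Corin.

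Nppa in the reading of mRNA stood at 2575 CPM or more in every library and varied widely within both groups, and the difference between Acly-KD and control did not pass the test, which 0.413% of the 1453 genes tested passed. Gm13054 received 4310, 771 and 2187 reads in Acly-KD replicates 1 to 3, against 362, 3511 and 1285 in control replicates 1 to 3. As Nppa these were 12036, 3514 and 5528 CPM in Acly-KD and 2575, 8153 and 3503 CPM in control. Acly-KD replicate 1 was the highest library and control replicate 2 the next, control replicate 1 was the lowest, and the groups overlapped.

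The means for Nppa were 7026 ± 4454 CPM in Acly-KD and 4744 ± 2988 CPM in control (SD, n = 3 each). On the log2 scale Acly-KD was higher by 0.56 (SE 0.70, 95% interval -1.35 to 2.46, edgeR adjusted p = 0.914), so that a level 0.394 times to 5.52 times that of control lies within the interval. Without Acly-KD replicate 1 the log2 fold change was -0.074 and without control replicate 2 it was 1.21, both with an adjusted p of 0.954 or above in edgeR. With a term for the control libraries with Xist reads it was 1.45. That term sets the 3 Acly-KD libraries against control replicate 1 alone, the library with the fewest reads. Read as the feature Gm13054 in the table as deposited, the log2 fold change was 0.61 (SE 0.70, edgeR adjusted p = 0.964), where 0% of 2952 features passed.

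**Figure D2:**
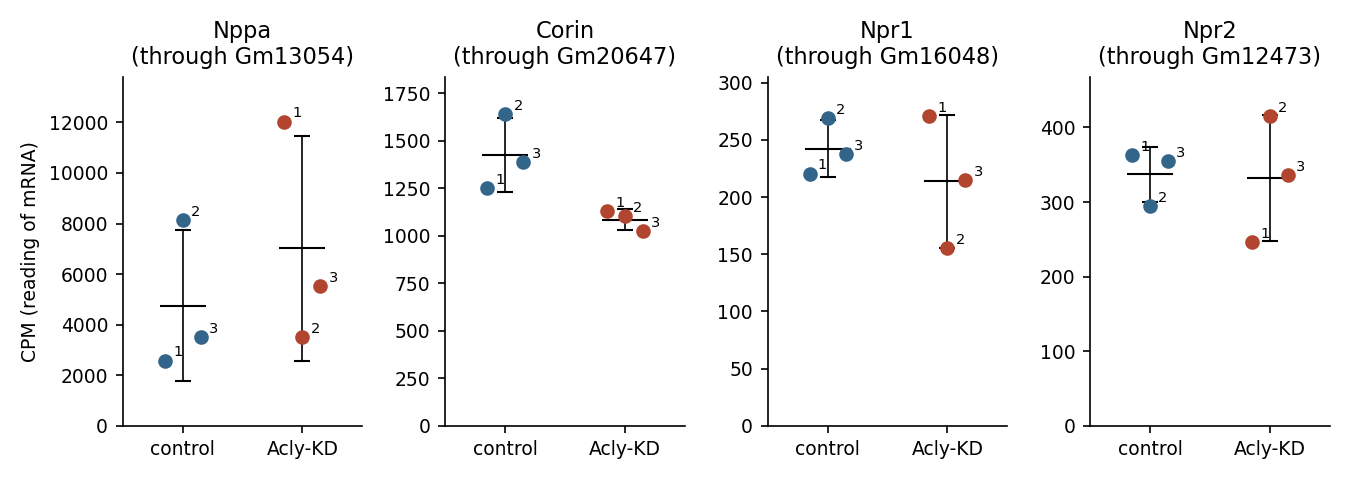
CPM of Nppa, Corin, Npr1 and Npr2 in the reading of mRNA, each from the feature named above its panel, for control and Acly-KD. Points are libraries with their replicate number, and bars give the mean and SD (n = 3). The 3 Acly-KD libraries lie below the 3 controls for Corin and overlap with them for the other genes.

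The spread of Nppa was far beyond counting error. Its SD within groups, pooled over both, was 0.88 on the log2 CPM scale, where reads of these numbers give 0.045 by counting alone. It ranked 35 from the widest of 1453 genes tested, whose median SD was 0.30. Among the 163 genes with a mean of at least 1000 CPM, with a median SD of 0.15, it ranked 2 from the widest. The highest library held 4.67 times the Nppa CPM of the lowest. For Corin, in the same libraries, this ratio was 1.60 and the pooled SD 0.15, near the median of the 163 genes.

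**Figure D3:**
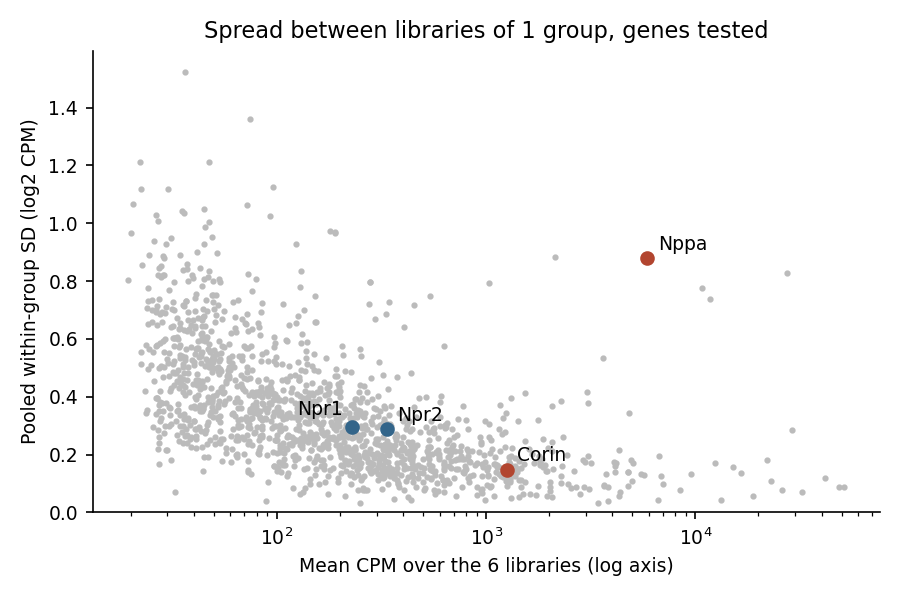
Pooled within-group SD of log2 CPM against the mean CPM of the 6 libraries (log axis) for the 1453 genes tested in the reading of mRNA. Nppa, at an SD of 0.88, lies above most genes of its level, while Corin, Npr1 and Npr2 lie within the cloud.

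The own row of Nppa, which by this pattern holds reads of the strand opposite to its mRNA, received few reads: 9, 9 and 16 in Acly-KD replicates 1 to 3, against 5, 27 and 16 in control replicates 1 to 3. They came to 18.6 ± 4.26 CPM in Acly-KD and 24.4 ± 6.97 CPM in control (SD, n = 3 each), with overlapping groups and log2 fold change -0.45 (SE 0.47, edgeR adjusted p = 0.959). Per 100 reads of Gm13054 the Nppa row held 0.209, 1.17 and 0.732 reads in Acly-KD replicates 1 to 3, against 1.38, 0.769 and 1.25 in control replicates 1 to 3. Acly-KD replicate 1, with the most Gm13054 reads, had the lowest ratio, and the groups overlapped. The log2 ratio differed by -0.97 between the groups, Acly-KD minus control, with p = 0.2 by a two-sided exact permutation test, which cannot go below 0.1 here. Without Acly-KD replicate 1 the difference was -0.26, and without Acly-KD replicate 2 it was -1.50.

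Nppb could be read only from its own row, with 5, 3 and 4 reads in Acly-KD replicates 1 to 3, against 1, 10 and 4 in control replicates 1 to 3. Such counts lie below the filter on low counts, so Nppb was not tested with the other features. Summed over libraries the groups held 12 and 15 reads, a ratio of 0.780 for Acly-KD over control after scaling to the summed library sizes, with an exact 95% interval of 0.334 to 1.79 that covers counting error only. Averaged over libraries the levels were 6.67 ± 1.45 and 7.07 ± 4.25 CPM (SD, n = 3 each), a difference within the spread. Control replicate 2 held 10 of the 15 control reads, and it is also the control with the most Nppa reads on either strand. No counted feature takes reads of Nppb mRNA on that strand, so its mRNA was not measured here. Nppc, the gene of C-type natriuretic peptide, held 0 reads in its own row in every library, where 0 reads allow up to 3.

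Corin read lower in Acly-KD than in control in the reading of mRNA, with groups that did not overlap, as for 14.7% of all genes tested (6.61% lower in Acly-KD), but did not pass the test. Gm20647 received 404, 242 and 405 reads in Acly-KD replicates 1 to 3, against 176, 706 and 509 in control replicates 1 to 3. As Corin these were 1128, 1103 and 1024 CPM in Acly-KD and 1252, 1639 and 1388 CPM in control. The Acly-KD libraries lay close together, and control replicate 2 was the highest of all.

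The means for Corin were 1085 ± 54.6 CPM in Acly-KD and 1426 ± 197 CPM in control (SD, n = 3 each). Acly-KD over control gave -0.40 on the log2 scale (SE 0.14, 95% interval -0.68 to -0.13, edgeR unadjusted p = 0.00632 and adjusted p = 0.262), a level 0.756 times that of control. Of the 2 members read this way 0 passed, and the gap seen for Corin was not seen for Nppa. Without control replicate 2 the log2 fold change was -0.29 (adjusted p = 0.881 in edgeR). With the term for the libraries with Xist reads, which leaves control replicate 1 as the only control compared, it was -0.21. It was below zero under each of the 15 alternatives run, with adjusted p from 0.123 to 0.881. That direction with each single library left out follows from groups that do not overlap.

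The Gm20647 row as deposited gave log2 fold change -0.37 (SE 0.16, edgeR adjusted p = 0.717), on the scale of all 2952 features tested there. It was -0.23 without control replicate 2 and -0.16 with the Xist term, that is, against control replicate 1 alone. Its groups did not overlap either, as for 11.4% of these features, 5.56% being lower in Acly-KD. Bulk counts cannot tell fewer cells of a type from less RNA per cell.

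**Figure D4:**
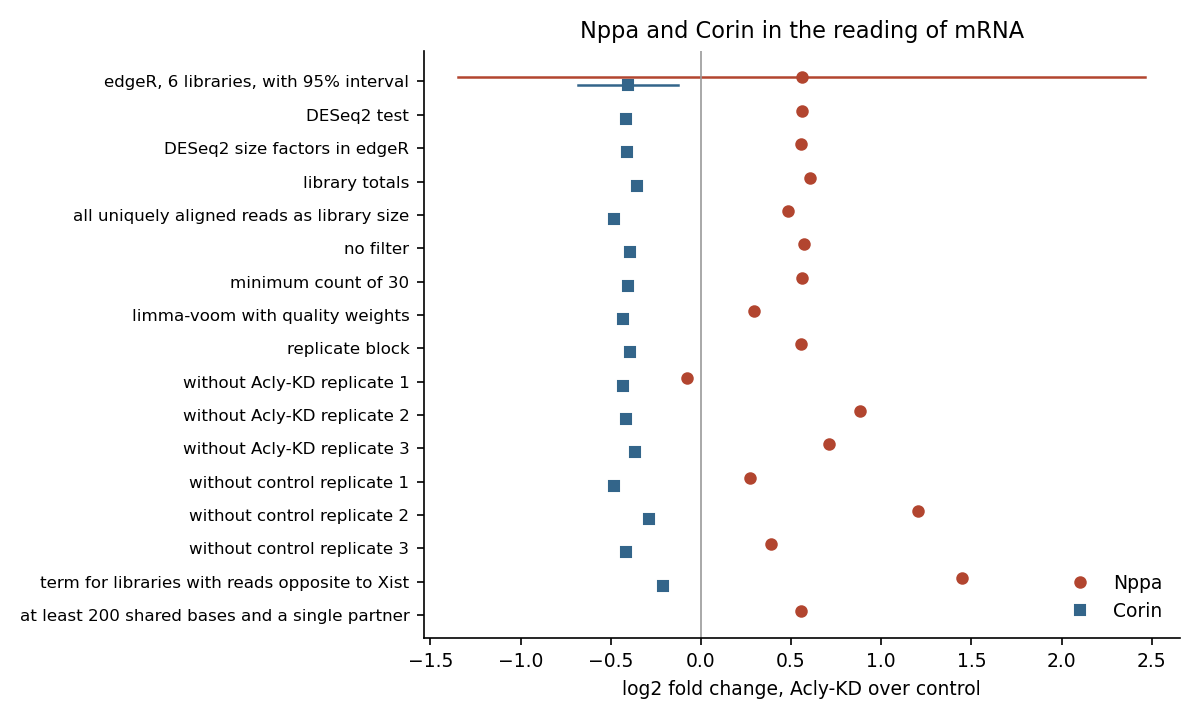
Log2 fold change of Nppa (circles) and Corin (squares) in the reading of mRNA, Acly-KD over control, by edgeR with its 95% interval (top) and under each alternative. Nppa ranges from -0.074 without Acly-KD replicate 1 to 1.45 with the Xist term, which compares Acly-KD with control replicate 1 alone. Corin ranges from -0.48 to -0.21, the latter also with that term. Corin shares fewer than 200 bases and has no value in the last line.

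The own row of Corin held 9, 7 and 26 reads in Acly-KD replicates 1 to 3, against 7, 16 and 11 in control replicates 1 to 3, or 21.1 ± 9.97 and 20.1 ± 4.94 CPM (SD, n = 3 each). The groups overlapped, with log2 fold change 0.16 (SE 0.51, edgeR adjusted p = 0.973). Acly-KD replicate 3 was the highest, and without it the log2 fold change was -0.27. Per 100 reads of Gm20647 the Corin row held 2.23, 2.89 and 6.42 reads in Acly-KD replicates 1 to 3, against 3.98, 2.27 and 2.16 in control replicates 1 to 3. The groups' log2 ratios differed by 0.36, with p = 0.5 by the same exact permutation test, and by -0.065 without Acly-KD replicate 3.

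**Figure D5:**
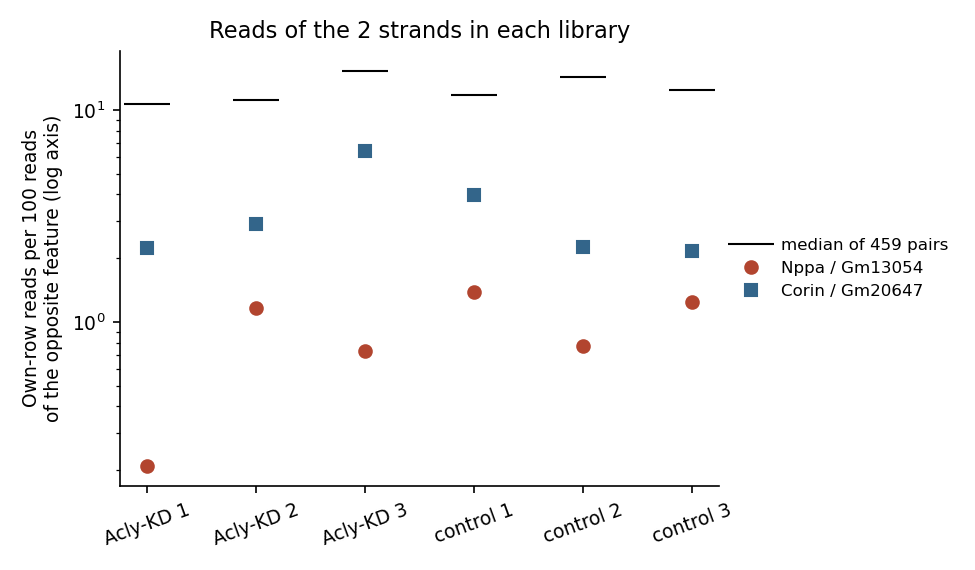
Reads in the own row of Nppa (circles) and Corin (squares) per 100 reads of the opposite feature in each library (log axis), with the median of 459 gene pairs as a bar. The median pair held 10.6 to 15.4 own-row reads per 100, above Nppa and Corin in all 6 libraries.

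For 459 pairs with at least 30 own-row and 100 opposite reads, the median was 10.6, 11.1 and 15.4 own-row reads per 100 opposite reads in Acly-KD replicates 1 to 3, against 11.8, 14.3 and 12.5 in control replicates 1 to 3. The ratios of Nppa and Corin lay below this median in every library. The pairs were limited by their own-row reads, which favours high ratios. The part of this ratio in the own-row values of Nppa, Nppb and Corin was not tested.

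For the receptors the groups overlapped and neither gene passed the test. Npr1, the guanylyl cyclase receptor of ANP and BNP, was read through Gm16048 (559 shared bases) with 97, 34 and 85 reads in Acly-KD replicates 1 to 3, against 31, 116 and 87 in control replicates 1 to 3. The means were 214 ± 58.0 CPM in Acly-KD and 242 ± 24.8 CPM in control (SD, n = 3 each), with log2 fold change -0.18 (SE 0.23, 95% interval -0.65 to 0.29, edgeR adjusted p = 0.911). Acly-KD replicate 2 was the lowest library and Acly-KD replicate 1 the highest, so the groups overlapped. Without the former the log2 fold change was -0.016, and without the latter it was -0.38.

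Npr2, the receptor of C-type natriuretic peptide, was read through Gm12473 (266 shared bases) with 88, 91 and 133 reads in Acly-KD replicates 1 to 3, against 51, 127 and 130 in control replicates 1 to 3. Its means were 332 ± 84.6 and 337 ± 37.0 CPM (SD, n = 3 each), with log2 fold change -0.026 (SE 0.20, 95% interval -0.44 to 0.39, edgeR adjusted p = 0.974). Acly-KD replicate 2 was the highest library and Acly-KD replicate 1 the lowest, the reverse of Npr1. Npr3, which clears the peptides from the blood, held 5 reads in all in its own row and was not tested.

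Levels between genes were compared as CPM of the table as deposited per kilobase of the counted feature. Gm13054 (for Nppa) read 1607 to 8069 per kilobase over the 6 libraries with a median of 2815, and Gm20647 (for Corin) 591 to 975 with a median of 736. Gm12473 (for Npr2) read 233 to 384 with a median of 304, and Gm16048 (for Npr1) 125 to 225 with a median of 179. The ranges followed this order without overlap, but those of Npr2 and Npr1 nearly met in Acly-KD replicate 1, at 233 and 225 per kilobase from 88 and 97 reads, which differ by less than counting error. Only part of each feature is shared with its gene, so these are levels of the counted features. The own rows read at most 36.9 per kilobase for Nppa, 15.1 for Nppb and 6.02 for Corin, far below the opposite features.

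Of the 37 genes in the lists for the pathway (ligands, processing enzymes, receptors, peptide degradation, cyclic GMP effectors and transcriptional regulators of Nppa and Nppb), 8 passed the filter on low counts in the reading of mRNA. By edgeR 1 of the 8 rose and 0 fell, beside 0.413% of all 1453 genes called in either direction, and 6 of the 8 log2 fold changes were negative, their median being -0.15 against 0.0051 over all 1453 genes. The gene that rose was Mrtfb, whose product works with serum response factor, a regulator of Nppa. It was read through Gm15738 with 63, 12 and 41 reads in Acly-KD replicates 1 to 3, against 6, 13 and 7 in control replicates 1 to 3, with log2 fold change 2.00 (SE 0.44, edgeR adjusted p = 0.0422). By raw reads Acly-KD replicate 2 lay within the range of the controls, and after scaling to its smaller library it lay above them. With the Xist term or a minimum count of 30 no gene passed the test. With aligned reads as library size, and with each control left out in turn, 0 genes rose.

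The other regulators read this way did not pass. Mef2d, a MADS-box factor of muscle genes, read 546 ± 32.7 CPM in Acly-KD and 589 ± 11.3 CPM in control (SD, n = 3 each). Its log2 fold change was -0.11 (edgeR adjusted p = 0.912), with groups that did not overlap, as for 14.7% of all genes tested. Gata6 and Tbx3, a GATA and a T-box factor of the heart, had log2 fold changes of -0.47 and -0.57 (edgeR adjusted p = 0.854 and 0.821), from 3 to 23 and 3 to 24 reads per library.

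As deposited, 5 of the 37 genes passed the filter and 0 the test, 4 of the 5 log2 fold changes being negative, with their median at -0.41 against -0.040 over all 2952 features. Beside Nppa and Corin these were the rows of Pde3a, a phosphodiesterase that breaks down cyclic nucleotides (log2 fold change -0.91), and of the regulators Hand2 (-0.41) and Mef2d (-0.13), with edgeR adjusted p of 0.906, 0.965 and 0.977. All 5 are own rows, which by the strand pattern hold reads of the wrong strand, so these values and their median do not measure the mRNA of the genes. Among the proteases, Furin, which cuts pro-BNP, held 1 to 15 reads and Pcsk6, which activates corin, 0 to 7 reads per library. The degrading enzymes Mme (neprilysin), Ide and Dpp4 held 0 to 2, 0 to 6 and 0 reads. None of these proteases and degrading enzymes had a row in the reading of mRNA, so the low own-row counts do not measure their mRNA.

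Around Nppa and Nppb, 11 further counted genes lie within 100 kb, and 2 of them passed the filter. None of the 11 had a row in the reading of mRNA. The values given are own-row reads, of the wrong strand, and do not measure the mRNA of these genes. Clcn6, a chloride transporter gene beside Nppa and on the strand of Gm13054, held 24, 22 and 16 reads in Acly-KD replicates 1 to 3, against 1, 23 and 14 in control replicates 1 to 3, with log2 fold change 0.89 (SE 0.54, edgeR adjusted p = 0.906). Mfn2, a gene of mitochondrial fusion, had log2 fold change -0.62 (SE 0.37, edgeR adjusted p = 0.906). Gm13156, Gm13207, Chchd2-ps, Gm13201 and Draxin held 0 reads in every library, and Plod1, 2510039O18Rik and Agtrap held 33, 6 and 13 reads in all.

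Atrial muscle cells express Nppa strongly, and their markers were read beside it. Of 9 atrial markers other than Nppa, Sln, Bmp10, Dkk3 and Fgf12 held 0 reads in every library, Myl4 held 1 read each in control replicates 2 and 3, and Myl7 held 4 in control replicate 2 and 0 elsewhere. These are own-row reads of the wrong strand, so low values do not measure their mRNA. The summed own-row level of the list was 27.6 to 48.8 CPM in Acly-KD and 46.1 to 69.2 CPM in control. Most of it was the row of Kcnj3, at 23.0 to 41.5 CPM in Acly-KD and 36.7 to 61.9 CPM in control. Only Kcnj3, a channel subunit of atrial and pacemaker cells, was read as mRNA. It stood at 1091 ± 48.2 CPM in Acly-KD and 1434 ± 148 CPM in control (SD, n = 3 each). The groups did not overlap, as for 14.7% of all genes tested, with log2 fold change -0.40 (SE 0.13, edgeR adjusted p = 0.230). The own row of Kcnj3 had log2 fold change -0.59 (edgeR adjusted p = 0.906) with overlapping groups. The part of atrial cells in the spread of Nppa was not tested.

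All 10 heart muscle cell markers passed the filter in their own rows, which hold reads of the wrong strand. Their sums were 4891, 9754 and 17098 CPM in Acly-KD replicates 1 to 3 and 12753 to 15704 CPM in control. All 10 own-row log2 fold changes were below zero, with a median of -0.37 against -0.040 over all 2952 features, and 0 passed the test. Of the 3 read as mRNA, Ttn (titin) read 2367 ± 404 CPM in Acly-KD and 1573 ± 193 CPM in control, and Ckm (muscle creatine kinase) 45164 ± 3473 and 51720 ± 2027 CPM. For both genes the groups did not overlap, as for 14.7% of all genes tested. Atp2a2 (the calcium pump SERCA2) read 41901 ± 3486 and 41082 ± 3446 CPM with overlapping groups (SD, n = 3 each for the 3 genes). None of the 3 passed the test (log2 fold changes 0.58, -0.20 and 0.028, edgeR adjusted p = 0.0731, 0.471 and 0.943). Own-row sums for the 5 ventricular markers were 1970 to 3631 and 3940 to 4708 CPM, of which the row of Myh7 gave 1649 to 2926 and 3136 to 3612 CPM. The 2 ventricular markers read as mRNA summed to 6787 to 9068 and 9106 to 30949 CPM. Of these, Myh7, the slow myosin heavy chain gene, was read through Mhrt, with log2 fold change -1.36 (edgeR adjusted p = 0.621). Its groups did not overlap, as for 14.7% of all genes tested. Control replicate 3 stood at 29362 CPM, against 6993 and 10226 in control replicates 1 and 2 and 5014 to 6694 in Acly-KD. The own row of Myh7, which holds reads of the wrong strand, gave -0.52 (edgeR adjusted p = 0.579). There the groups did not overlap, as for 11.4% of the 2952 features tested as deposited. Myl2 had log2 fold change 0.11 with overlapping groups (edgeR adjusted p = 0.910). The other lists had no gene in the reading of mRNA, so only own-row sums, of the wrong strand, were available. For the 8 endothelial and endocardial markers these sums were 30.7 to 234 CPM in Acly-KD and 87.7 to 138 CPM in control. For the 7 fibroblast markers they were 16.9 to 26.9 and 12.9 to 27.2 CPM. For the 6 smooth muscle and pericyte markers they were 46.1 to 122 and 91.0 to 106 CPM. For the 6 leukocyte markers, with Ptprc and Adgre1 at 0, they were 75.7 to 96.7 and 87.4 to 122 CPM. Most of the leukocyte sums came from the row of Csf1r alone, at 75.7 to 96.7 CPM in Acly-KD and 61.9 to 114 CPM in control.

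The pattern of Nppa over the libraries was compared with that of 1314 named genes with a mean of at least 20 CPM, as the root mean square difference of log2 CPM after centring each gene on its mean of the 6 libraries. The most alike were Cstf2, Nid2, Bcl2, Kmt5b and Rcor3, at 0.33, 0.33, 0.35, 0.37 and 0.38, where the median gene lay at 0.81. These genes were read from few reads, such as 37, 7 and 10 in Acly-KD replicates 1 to 3, against 2, 18 and 7 in control replicates 1 to 3 for Cstf2. No gene of the natriuretic pathway was among the 5.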

How the data were processed

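The members and gene lists were chosen with earlier results of these data known. The authors deposited raw counts of reads per gene for 3 Acly-KD and 3 control libraries, with no normalization. In the submitters' processing notes the tools are TopHat2, HTSeq, SAMtools, FastQC and DESeq2, with no versions, and the build is mm10. The library kit marks strand, per the labels' protocols. Which strand HTSeq was set to count is not given here. Rows that name no gene took 97.4% to 97.7% of entries and stayed out. Libraries of 1 group differed by a chi-square of 3.43 to 10.1 per degree of freedom, so none repeated another.

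Exons came from GENCODE M21 (mm10), which held 45143 of the 46078 identifiers. For the reading of mRNA the counts of a nuclear feature went to the gene holding 80% or more of its overlap on the other strand, with 50 or more bases in common, where that gene had fewer counts or no row. The test was edgeR 4.0.16 in R 4.3.3 (TMM, filterByExpr at a count of 10, quasi-likelihood with robust fitting, Benjamini-Hochberg adjustment over all features tested, threshold 0.05). The steps were tested on simulated data. Intervals come from the standard error and the t distribution. Strand ratios, with a pseudocount of 0.5, were compared by exact permutation tests in scipy 1.17.1. Alternatives were DESeq2 1.42.0, its size factors, library totals, aligned reads, 2 filters, limma-voom 3.58.1, a replicate block, each library left out, and a stricter overlap rule. A term for the libraries with Xist reads was added after seeing the data. It leaves control replicate 1 as the only control compared with Acly-KD, so its values rest on a single control. Named genes were all members and their opposite features, pathway and atrial genes that passed the filter, the genes within 100 kb of Nppa or Nppb, and the 5 genes most alike to Nppa. Npr3, Nppc, Furin, Pcsk6, Mme, Ide, Dpp4, the unmeasured markers and the heart muscle and ventricular markers read as mRNA were named outside that rule. Some genes and sequences are not reported here.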

Additional observations from a re-analysis of the deposited data

How the results depend on the processing

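Of the values for the members, none passed the test under any alternative run. As deposited the test called 0 features, with 180 at an unadjusted p under 0.05 by edgeR and 0 called by DESeq2, against 3 with no filter, 3 by limma-voom and 0 to 69 with each library left out, the 69 without Acly-KD replicate 3. In the reading of mRNA it called 6 genes, against 30 with no filter, 14 by limma-voom, 12 with the replicate block, 2 with aligned reads as library size, 0 with a minimum count of 30 (98 at an unadjusted p under 0.05), 0 with the Xist term (96) and 1 (without control replicate 2) to 20 (without Acly-KD replicate 3) with each library left out. Same-numbered libraries did not deviate together (correlations from -0.18 to -0.02). That gave no sign of pairing by number, but it cannot show that there was none. With the block Nppa read 0.56 and Corin -0.39.

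Directions turned for Nppa in its own row with the Xist term (0.017; -0.55 to -0.16 with each library left out), for Corin in its own row with the Xist term (-0.23; -0.27 to 0.43), and for the Corin strand ratio (-0.065 to 0.67), Gm13054 as deposited (-0.085 to 1.30), Nppa in the reading of mRNA (-0.074 to 1.21) and Nppb (-0.40 to 0.51) with a library left out. Npr2 turned with library totals (0.029), limma-voom (0.0077) and single libraries left out (-0.20 to 0.16). The cause was not tested. Nppb has no reading of mRNA, and its own row has no value by DESeq2, limma-voom, the block or the stricter filter because it lies below the filter; the own rows of Nppa and Corin have none at a minimum count of 30, and Corin in the reading of mRNA has none under the 200-base rule. Single-library depth limits the own rows, at 1 to 27 reads.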

Other observations

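Corin and Kcnj3, noticed after their values were seen, gave almost the same CPM in the reading of mRNA. They lie on different chromosomes and were read through different features. How many other pairs of genes lie as close was not counted. Corin read 1085 ± 54.6 CPM in Acly-KD and 1426 ± 197 CPM in control, and Kcnj3 1091 ± 48.2 and 1434 ± 148 CPM (SD, n = 3 each). In Acly-KD replicates 1 to 3 the reads opposite to Corin numbered 404, 242 and 405, and those opposite to Kcnj3 376, 251 and 427. For control replicates 1 to 3 they numbered 176, 706 and 509, and 178, 667 and 545.

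Within a library, reads opposite to Nppa per read opposite to Corin need no scaling between libraries. For Acly-KD replicates 1 to 3 this came to 10.7, 3.19 and 5.40, and for the controls in the same order to 2.06, 4.97 and 2.52. The highest value was that of Acly-KD replicate 1, and the groups overlapped.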
